A study of Sminthopsis crassicaudata with 9 samples.

Results

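Cytokines, chemokines, the TNF superfamily and the Toll-like receptors were examined in the face of the newborn fat-tailed dunnart, a small carnivorous marsupial whose young are born at a very early stage and finish their development attached to the teat. The genes were taken by symbol from the table of gene counts: every gene whose name is an interleukin, an interleukin receptor, a CC or CXC chemokine or chemokine receptor, a numbered TNF superfamily ligand (TNFSF) or receptor (TNFRSF), or a Toll-like receptor (TLR). This gave 117 of 21703 gene models, of which 14169 carry a symbol. Family genes named in other ways (TNF, LTBR, the ACKR receptors) lay outside this rule and were counted separately.

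All samples came from 1 tissue at 1 age, so there was no contrast between conditions, and the values below are levels with their spread. RNA-seq was made from 3 libraries (FP1, FP2 and FP3), each a pool of the facial prominences of 2 young at postnatal day 0. Chromatin immunoprecipitation followed by sequencing (ChIP-seq) for the histone marks H3K4me3, found at active and poised promoters, and H3K27ac, found at active promoters and enhancers, was made in 2 replicates from pooled heads (26 in replicate 1, 27 in replicate 2) of young less than 24 hours old, each against its own input DNA. The tissue was the mandibular, maxillary and fronto-nasal prominences without tongue, neural tube and eye primordia, and so held skin, oral and nasal epithelium, mesenchyme, muscle, vessels and blood together. Gene models had been transferred to the dunnart assembly from the Tasmanian devil, so a transcription start site (TSS) here is the outermost exon end of a transferred model.

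Cytokines are small secreted proteins that carry signals between immune cells and between immune and tissue cells. Interleukins and TNF ligands bind receptor chains that signal mostly through JAK-STAT, MyD88 or TRAF proteins, and chemokines draw cells along a gradient through G protein-coupled receptors. TLRs recognise microbial components at the cell surface or in endosomes, and keratinocytes and mucosal epithelium use them beside resident leukocytes. Several members also act in development, such as CXCL12 with CXCR4 in cell migration and TNFSF11 with TNFRSF11A in osteoclast formation.

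The libraries held between 16096971 and 17419099 counts on genes, of which the 117 genes took 0.0936% in FP1, 0.119% in FP2 and 0.119% in FP3. A count of 3, used as the limit of detection, was worth a median of 0.138 to 0.168 TPM over the members (TPM being a level corrected for exon length and library depth). Markers of epithelium were high and those of leukocytes low. All 10 of the surface epithelium markers found were expressed, with summed levels of 5580, 4167 and 7001 TPM in FP1, FP2 and FP3, led by KRT14. Of 8 pan-leukocyte markers 7 were expressed, with sums of 59.7, 60.8 and 46.3 TPM, and PTPRC, which encodes CD45, had a mean of 0.713 TPM. Of 7 macrophage markers 6 were expressed, with sums of 52.3, 50.6 and 27.4 TPM, while AIF1 had no counts. Of 9 T cell markers 2 were expressed (BCL11B and CD247), CD4 was at 1.74, 2.67 and 0.816 TPM, CD3E and CD8A were at or below 3 counts in each library, and CD2 and CD5 had no counts. None of 4 NK cell markers was expressed, 2 of 7 B cell markers and 2 of 7 dendritic cell markers were, and MS4A1 and CD207, which marks Langerhans cells, had no counts. Of 6 mast cell markers 3 were expressed (GATA2, KIT and HDC), while CPA3 had 0, 2 and 0 counts and FCER1A had none. Of 3 neutrophil markers 2 were expressed, and MMP8 had no counts. MMP9, an expressed neutrophil marker, is also in the list of bone and osteoclast markers used below. These counts are read against 56.5% of all genes and 75.3% of genes with a symbol expressed (over 1 TPM in each library). In bulk tissue, fewer cells of a type and less RNA per cell cannot be told apart.

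Most of the 117 genes were not expressed by the rule used here, and the classes differed in how many were. A gene was called expressed when it exceeded 1 TPM in each of the 3 libraries. By this rule 49 of 117 members (41.9%) were expressed, against 56.5% of all genes and 75.3% of genes with a symbol. The median of the members' mean levels was 1.16 TPM, against 3.83 over all genes and 12.8 over genes with a symbol. Of the members, 19 (16.2%) exceeded 10 TPM on average, against 39.2% of all genes and 54.5% of genes with a symbol. At the other end, 7 (5.98%) had 0 counts in all 3 libraries, against 22.5% and 6.79%. An H3K4me3 peak found in both replicates lay within 1 kb of the TSS in 65 members (55.6%), against 67.7% of all genes and 83.1% of genes with a symbol. An H3K27ac peak lay there in 71 members (60.7%), against 71.5% and 85.9%, and both marks in 62, against 66.3% and 82.1%. The members were thus below the background in each of these shares, as a description of these libraries without a test.

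Among the classes, 22 of 35 interleukin receptors, 11 of 30 interleukins, 6 of 11 chemokines, 7 of 14 TNF receptors, 2 of 9 TNF ligands, 1 of 7 chemokine receptors and none of 9 TLRs were expressed. The median level was 3.44 TPM for the interleukin receptors and 2.13 TPM for the TNF receptors, but 0.177 TPM for the TLRs and 0.114 TPM for the chemokine receptors. TNF receptors were marked more often than they were expressed, with H3K4me3 at 12 of 14 start sites and H3K27ac at 13. The 2 remaining genes with interleukin names, IL4I1 (a secreted amino acid oxidase) and IL18BP (a soluble decoy that binds IL18), carried both marks and were not expressed in every library.

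**Figure D1:**
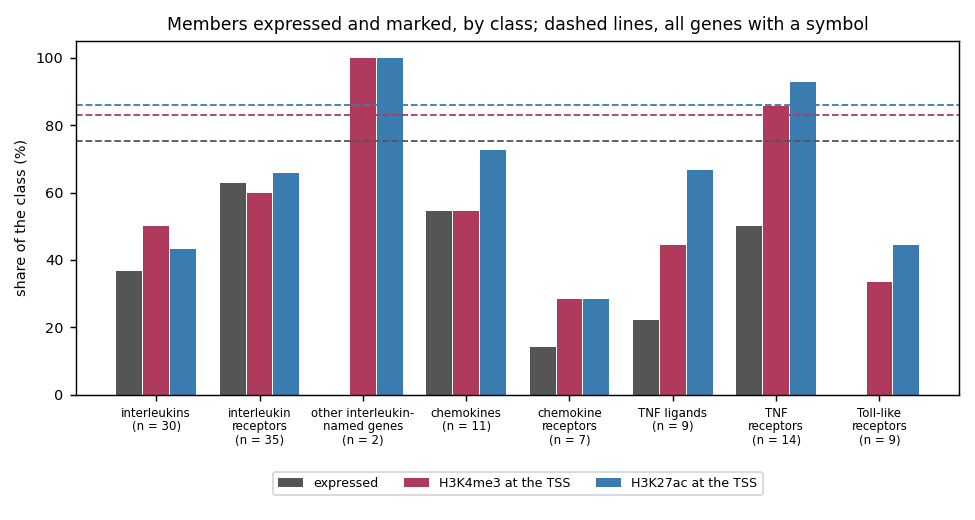
Share of each class (%, vertical axis) that was expressed over 1 TPM in every library or had H3K4me3 or H3K27ac within 1 kb of the TSS, with class sizes below; dashed lines give the same shares for all genes with a symbol (75.3%, 83.1% and 85.9%). The TNF receptors reach the background for both marks, and none of the 9 Toll-like receptors was expressed.

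The most abundant interleukins, IL36RN and IL18, belong to the IL1 family. IL36RN, the antagonist of the IL36 receptor, was at 166, 214 and 268 TPM in FP1, FP2 and FP3 (216 ± 51.2, SD, n = 3). Its model (scaffold 48, 5769709 to 5775530, plus strand) has only 247 bases of exon, so its 371, 395 and 539 counts weigh heavily on the TPM scale, and 3 counts are worth 1.34 TPM in FP1. IL18, a cytokine of barrier epithelium made as an inactive precursor (scaffold 5, 7233185 to 7240889, minus strand), was at 41.3, 50.7 and 40.2 TPM (44.1 ± 5.78). IL1B, a central fever and inflammation cytokine, was at 10.3, 9.34 and 7.91 TPM. IL1A, which keratinocytes store, had 6, 14 and 61 counts (0.436, 1.24 and 4.94 TPM), so that FP3 stood apart, and it was not called expressed. IL33, an alarmin of nuclei, was at 0.862, 1.75 and 1.01 TPM, and IL1F10 stayed below 1 TPM in each library.

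Outside the IL1 family, IL11 was the most abundant. IL11, which signals through IL6ST in bone and stroma, was at 11.6, 8.25 and 9.76 TPM. IL27, a subunit of a dimeric cytokine, was at 5.93, 4.06 and 4.68 TPM. IL17A was at 5.27, 3.79 and 6.41 TPM from 22, 13 and 24 counts on a model of 460 bases. IL34, a ligand of the macrophage receptor CSF1R, was at 2.05, 4.61 and 3.11 TPM, and IL7, a lymphocyte growth factor, at 1.58, 3.01 and 1.98 TPM. IL16, IL13 and IL12B completed the 11 expressed interleukins at 2.41, 1.67 and 1.27 TPM on average. The T helper cytokines IL4, IL10, IL17F and IL21 had 0 counts in all 3 libraries, and IL5 and IL9 had between 0 and 6. A count of 0 allows up to 3 counts, which is 0.471 to 0.573 TPM for IL10 and 0.583 to 0.709 TPM for IL4. IL6 was at 0.898, 1.59 and 0.819 TPM.

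The interleukin receptors held the largest group of expressed genes. IL20RB, a shared chain of the receptors for IL19, IL20 and IL24 (scaffold 70, 4590433 to 4618584, plus strand), was at 46.9, 77.5 and 85.9 TPM (70.1 ± 20.5), from 1215 to 1998 counts. IL18R1, the ligand-binding chain for IL18, was at 22.8, 55.1 and 21.1 TPM, so that FP2 stood apart. IL13RA1, a chain for IL4 and IL13, was at 20.2, 35.2 and 31.5 TPM.

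The IL17 receptors formed the most complete set. IL17RC was at 29.4, 22.7 and 28.4 TPM, IL17RE, the partner for IL17C, at 21.3, 20.8 and 23.8 TPM, and the shared chain IL17RA at 11.2, 18.5 and 18 TPM. IL17RB and IL17RD, the latter a feedback inhibitor of FGF signalling, were expressed at 3.80 and 5.59 TPM on average, and IL17REL at 2.18 TPM. IL17RC and IL17RE are neighbours, with start sites within 100 kb of each other.

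Shared signalling chains followed. IL6ST (gp130), used by IL6, IL11 and LIF (scaffold 81, 8095515 to 8137583, minus strand), was at 17.2, 22.9 and 22.3 TPM, and IL10RB, shared by IL10 and IL22, at 14.9, 26.2 and 19.2 TPM. IL1RL2, the receptor chain for IL36, was at 6.37, 18.5 and 14.0 TPM. IL4R was at 5.99, 11.6 and 11.4 TPM, IL22RA1, an epithelial chain for IL22, at 4.29, 14.1 and 8.56 TPM, and IL2RG, the common gamma chain, at 8.25, 5.88 and 11.6 TPM. The decoy receptor IL1R2 was at 4.15, 10.7 and 9.62 TPM. Among the 13 chains that were not expressed, IL12RB2 was at 0.795, 2.46 and 0.709 TPM from 20, 51 and 16 counts, and IL13RA2 at 0.444, 1.56 and 1.54 TPM. IL7R had 0, 1 and 0 counts, IL2RB had 0, 0 and 1, and IL12RB1 had 2, 2 and 0. IL2RA had 0, 0 and 1 counts on a model of 201 bases, where 3 counts are worth up to 2.00 TPM.

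**Figure D2:**
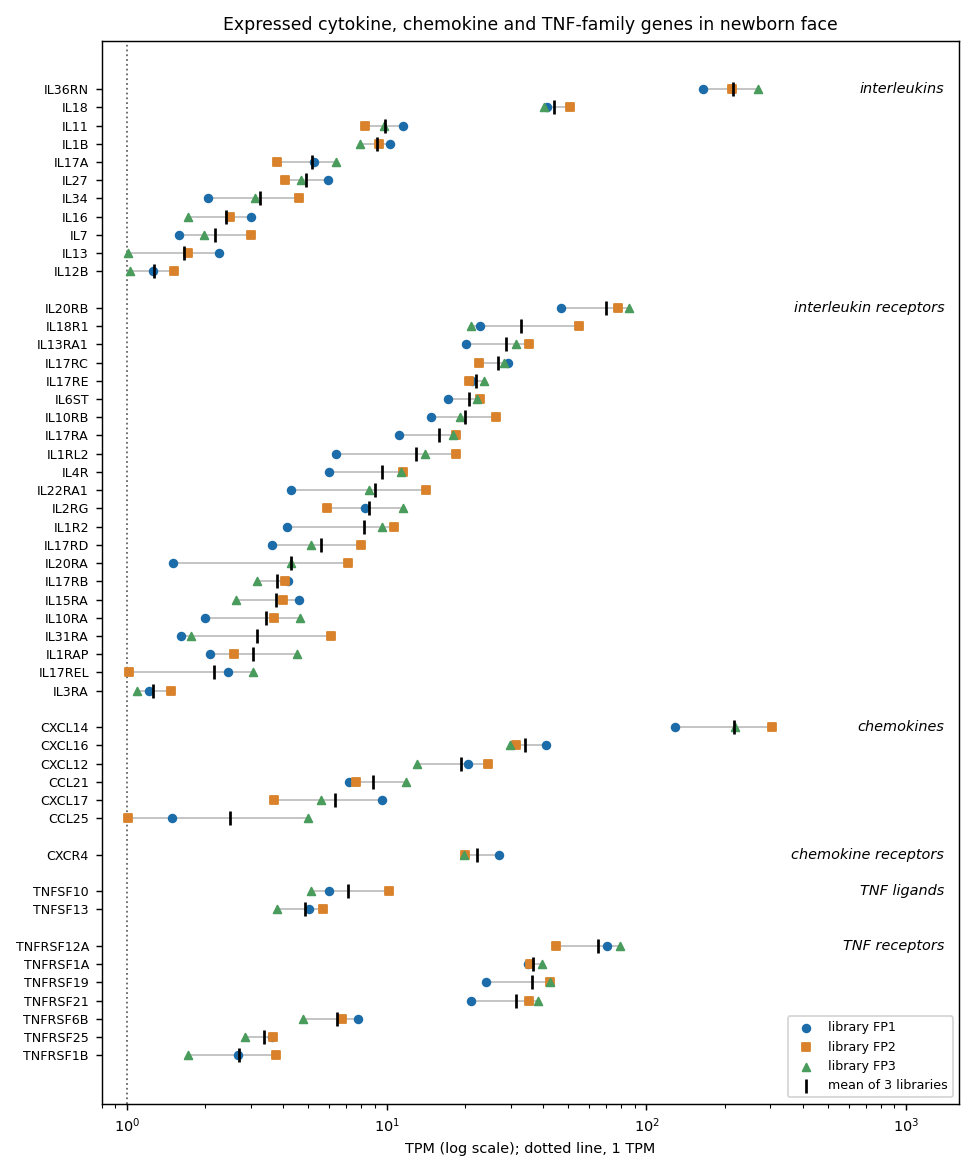
TPM (log scale, horizontal axis) of the 49 expressed members in libraries FP1, FP2 and FP3, grouped by class, with the mean of the 3 libraries as a black bar. CXCL14 and IL36RN lie above 100 TPM in every library, and FP1 is the lowest library for IL20RA, IL22RA1 and IL1RL2.

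Of the chemokines, CXCL14 was the most abundant, at a level that overlapped that of IL36RN. CXCL14, a chemokine of epithelium and mesenchyme that is made without inflammation (scaffold 92, 2571201 to 2585319, minus strand), was at 129, 305 and 219 TPM (218 ± 88.3, SD, n = 3). CXCL16, a transmembrane chemokine, was at 41.1, 31.6 and 29.8 TPM. CXCL12 was at 20.5, 24.5 and 13.1 TPM and its receptor CXCR4, which guides neural crest, endothelial and blood cells, at 27, 19.96 and 19.8 TPM. The libraries of CXCL12 and CXCR4 overlapped.

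CCL21, a chemokine of lymphatic endothelium, was at 7.15, 7.66 and 11.9 TPM. CXCL17, a mucosal chemokine, was at 9.63, 3.68 and 5.62 TPM, and CCL25, known from thymus and gut, at 1.5, 1.01 and 5.0 TPM from 9, 5 and 27 counts. CCL20, which is induced in epithelium by bacteria and IL17, was at 0.490, 0.968 and 3.0 TPM from 8, 13 and 44 counts. Both CCL20 and IL1A were highest in FP3. The leukocyte-attracting CCL17, CCL19, CCL22 and CCL28 had at most 5 counts in any library. Of the chemokine receptors only CXCR4 was expressed, CCR4 and CCR8 had 0 counts throughout, and CCR6, CXCR3, CXCR5 and CCR10 had at most 11.

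The TNF receptors were led by members with roles outside leukocytes. TNFRSF12A (Fn14, the receptor of TWEAK, scaffold 2, 263466388 to 263468753, plus strand) was at 70.3, 44.9 and 79.2 TPM. TNFRSF1A, the broadly expressed TNF receptor, was at 35.1, 35.5 and 39.7 TPM (36.7 ± 2.52). TNFRSF19 (TROY) was at 24.1, 42.5 and 42.6 TPM and TNFRSF21, a death receptor, at 21.1, 35.2 and 38.3 TPM, both lowest in FP1. TNFRSF6B, TNFRSF25 and TNFRSF1B were expressed at 6.42, 3.38 and 2.71 TPM on average. The other 7 were not expressed. TNFRSF9 (4-1BB), a receptor of activated lymphocytes, was at 0.760, 1.85 and 2.06 TPM from 28, 56 and 68 counts. TNFRSF4 and TNFRSF18 had 3 to 13 counts, TNFRSF11A had 6 or 7, TNFRSF8 had at most 4, TNFRSF13C had 1 count in all and TNFRSF13B had none.

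Of the TNF ligands, TNFSF10 (TRAIL) at 5.98, 10.2 and 5.12 TPM and TNFSF13 (APRIL) at 5.01, 5.70 and 3.79 TPM were expressed. TNFSF15 was just below the threshold at 0.773, 0.969 and 0.727 TPM. TNFSF11 (RANKL), which drives osteoclast formation, had 7, 6 and 4 counts and its receptor TNFRSF11A (RANK) had 7, 6 and 7, although both carried H3K4me3.

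No TLR reached 1 TPM in every library. TLR6, which pairs with TLR2 for bacterial lipopeptides, was the highest at 1.36, 1.51 and 0.606 TPM from 45, 41 and 18 counts. TLR4, the receptor for lipopolysaccharide, was at 0.645, 0.660 and 1.51 TPM, TLR2 at 0.455, 1.42 and 0.158 TPM, and TLR5, the flagellin receptor, at 0.380, 1.06 and 0.242 TPM. TLR2 and TLR5 were highest in FP2, from 41 and 32 counts, and TLR4 was highest in FP3, from 40 counts. The endosomal receptors of nucleic acids were lower still: TLR7, TLR8 and TLR9 had 0 to 9 counts, and TLR3, the receptor for double-stranded RNA, had 0, 2 and 0. TLR10 had 2, 8 and 1. TLR6 and TLR10 are related genes with start sites within 100 kb of each other, and reads that fit both could not be assigned between them here.

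The genes downstream of the TLRs were expressed more often. Of 18 TLR adaptors and proximal kinases found, 13 were expressed, with TOLLIP at 78.9, TAB1 at 67.1 and MAP3K7 at 36.9 TPM on average. MYD88, the adaptor of most TLRs and of the IL1 receptors, was at 13.3, 26.0 and 23.4 TPM, and CD14, a co-receptor of TLR4, at 10.1, 12.7 and 8.59 TPM. LY96 (MD-2), which TLR4 needs to bind lipopolysaccharide, was at 1.28, 0.649 and 0.833 TPM, and TICAM1, the adaptor of TLR3, stayed below 1 TPM in each library. Of 20 NF-kB pathway genes 19 were expressed, led by RELA, NFKBIE and TNIP1, and of 22 JAK-STAT genes 19, led by STAT3, JAK1 and PIAS4. JAK3 and STAT4, which lymphocytes use, were below 0.3 TPM, and SOCS1 had no counts. Set against 75.3% of genes with a symbol, the NF-kB and JAK-STAT lists were above the background, and the TLR adaptors were near it.

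Placed beside each other, ligands and their receptor chains were often unequal. For the IL20 group, the chains IL20RB, IL22RA1 and IL20RA were at 70.1, 9.0 and 4.3 TPM on average, while the ligands IL19, IL20 and IL24 were at 0.142, 1.00 and 0.0281 TPM. For IL10, the chains IL10RB and IL10RA were at 20.1 and 3.44 TPM and the ligand had 0 counts. For IL4 and IL13, IL13RA1 and IL4R were at 28.9 and 9.64 TPM, IL13 at 1.67 TPM and IL4 had 0 counts. The decoy chain IL13RA2 was at 1.18 TPM on average, and its libraries overlapped those of IL13. For IL17C, the receptor pair IL17RA and IL17RE was at 15.9 and 22 TPM and the ligand at 0.209, 1.27 and 0.698 TPM.

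The opposite arrangement also occurred. IL7 was at 2.19 TPM while its receptor chain IL7R was at 0.0251 TPM. IL33 was at 1.20 TPM and its receptor IL1RL1 at 0.0541 TPM. IL27 was at 4.89 TPM with IL27RA at 0.143 TPM, and IL18 and IL18R1 were at 44.1 and 33.0 TPM while the accessory chain IL18RAP was at 0.170 TPM. Levels of ligand and receptor were of the same order for CXCL12 (19.4) and CXCR4 (22.3), whereas the scavenger receptor ACKR3, which also binds CXCL12, was at 95.3 TPM. No gene model carried the symbols IL1R1, IL36A, IL36B, IL36G, IL11RA, IL31, CCR7, CCR9, CXCR6, TNFSF12 or TNFRSF11B, so their levels are not known here. All of these symbols fit the rule, so the class totals above cover only family genes whose model carries such a symbol. The groups of IL1, IL36, IL11, IL31, CCL21, CCL25, CXCL16, TWEAK and TNFSF11 are therefore incomplete.

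**Figure D3:**
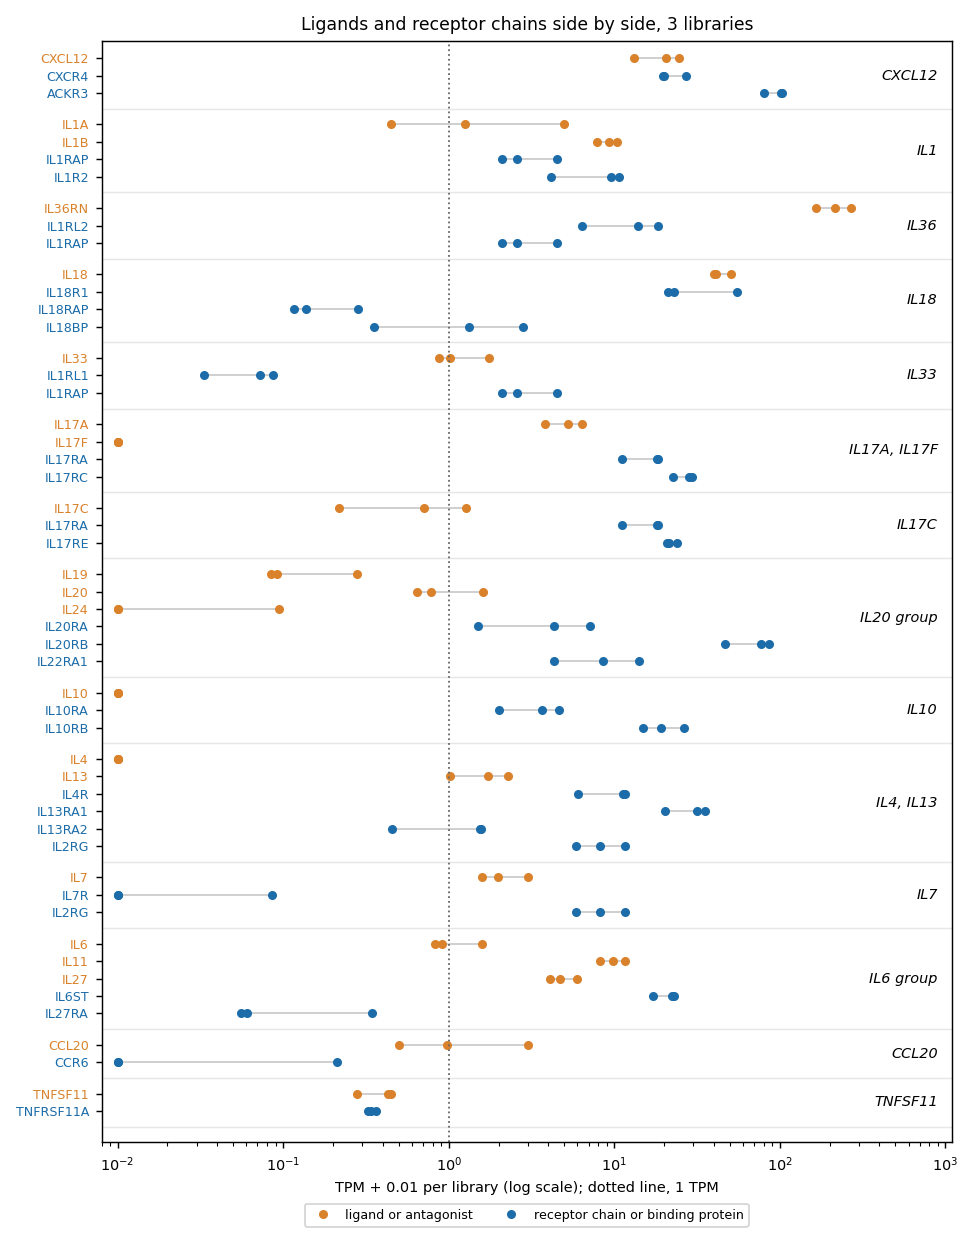
TPM plus 0.01 (log scale, horizontal axis) in each of the 3 libraries for ligands or antagonists (orange) and receptor chains or binding proteins (blue), in groups that bind each other; the dotted line marks 1 TPM. In the IL20 group and for IL10 the means of the receptor chains lie to the right of those of the ligands, and for IL7 and IL33 the specific receptor chain lies to the left. The IL36 group shows the antagonist IL36RN without its agonist ligands, whose symbols no gene model carried.

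H3K4me3 at the start sites of the members was weaker than at the genes with a symbol. The median fold enrichment over input was 18.5 in the 65 members with a peak, against 43.4 in all genes and 47.9 in genes with a symbol, and the peaks had a median width of 1923 bases against 2590. For H3K27ac the medians were 9.75 (n = 71) and 26.6. Over the 65 members the log10 fold enrichments of replicates 1 and 2 had a Pearson r of 0.968, and over the 71 with H3K27ac of 0.881. The ratio of replicate 2 to replicate 1 ranged from 0.575 to 1.74 for H3K4me3 and from 0.416 to 2.46 for H3K27ac. Of the 65 peaks, 31 exceeded a fold enrichment of 20 and 20 were at 7 or below.

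The 10 strongest H3K4me3 peaks lay at genes of low and of high level. IL17RD (scaffold 2, 57209516 to 57290401, minus strand) had fold enrichments of 76.6 and 81.9 in replicates 1 and 2 at a mean of 5.59 TPM. IL1RAP, the shared accessory chain of the IL1 family, had 66.5 and 76.7 at 3.06 TPM, and IL7 had 53.2 and 65.6 at 2.19 TPM. These 3 genes were expressed at low levels under strong peaks. IL17RA had 46.1 and 64.6 at 15.9 TPM, IL6ST 56.4 and 49.9 at 20.8 TPM, IL17RB 34.8 and 57.9 at 3.80 TPM, and TNFRSF12A 43.5 and 44.4 at 64.8 TPM. IL6ST also had the strongest H3K27ac at a start site, at 82.2 and 55.8. CXCL14, at 218 TPM, had 21.4 and 28.7 for H3K4me3 and 10.6 and 8.41 for H3K27ac.

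Weak peaks were also found at expressed genes. CCL21 had H3K4me3 of 2.98 and 2.95, IL16 of 3.59 and 3.26, CXCL17 of 3.39 and 4.24, IL22RA1 of 3.78 and 5.62, and IL18R1 of 5.75 and 9.79 at 33.0 TPM. Over the 65 members, the log10 fold enrichment of H3K4me3 and log2(TPM + 1) had a Pearson r of 0.306 and a Spearman rho of 0.321, against 0.490 and 0.512 over 11769 genes with a symbol and a peak. These points share libraries and depth, and the correlations are given as a description. H3K4me3 and H3K27ac at the same start site went together, with r = 0.802 over 62 members and 0.818 over genes with a symbol.

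**Figure D4:**
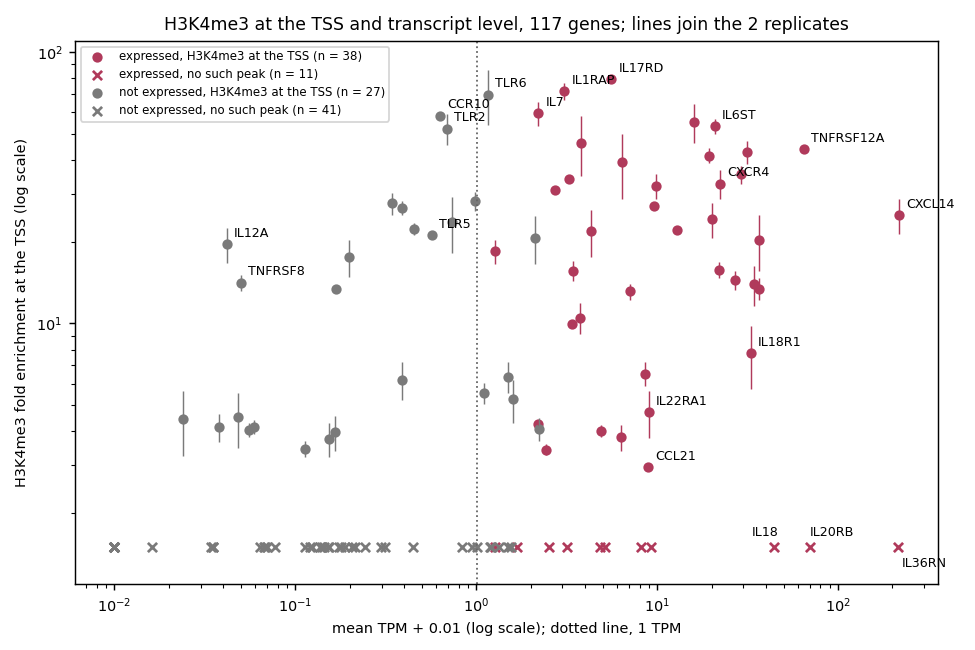
H3K4me3 fold enrichment at the TSS (log scale, vertical axis, mean of 2 replicates with a line joining them) against mean TPM plus 0.01 (log scale, horizontal axis) for the 117 genes; crosses at the bottom are genes with no H3K4me3 within 1 kb. Of the 65 genes with a peak, 38 were expressed and 27 were not, and IL36RN, IL20RB and IL18 lie far to the right without a peak.

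Promoter marks were present at 27 members that were not expressed. They were 27 of the 65 members with H3K4me3 (41.5%), against 26.4% of all genes with the mark and 18% of those with a symbol. Where H3K4me3 exceeded a fold enrichment of 20, 21 of 31 members were expressed, against 91.4% of genes with a symbol in that range. Between 7 and 20 it was 10 of 14 members against 46.7%, and up to 7 it was 7 of 20 against 48%. The ranges were chosen after the values were seen, and no test was made.

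TLR6, CCR10 and TLR2 had the strongest H3K4me3 among these. TLR6 (scaffold 1, 70600741 to 70617030, minus strand) had 53.7 and 85.5 in replicates 1 and 2, and H3K27ac of 37.4 and 53.4, but the start site of FAM114A1 lies at the same peak. CCR10, a skin-homing receptor, had 58.5 in replicate 1, within a domain of 15515 bases that also covers or adjoins the start sites of PLEKHH3 and CNTNAP1. The replicate 2 peak matched to that domain had 58, but the replicate 2 peak over the TSS of CCR10 itself had 15.5, so the value at this TSS is lower in replicate 2. TLR2 (scaffold 158, 343289 to 355756, plus strand) had 45.6 and 58.9 with no other start site within 1 kb of the peak, and H3K27ac of 27.3 and 27.5. The means of 52.2 and 27.4 lie above the medians of genes with a symbol (47.9 and 26.6), while the libraries gave 16, 41 and 5 counts.

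IL17D had H3K4me3 of 25.9 and 30.5, TNFRSF11A of 30.4 and 25.1, TNFSF11 of 25.1 and 28.2, IL17C of 18.1 and 29.2, TNFRSF18 of 23.4 and 21.2, TLR5 of 21.2 and 21.0 and IL4I1 of 16.5 and 24.8. Each of these had H3K27ac as well. IL12A, a subunit of IL12, had 16.7 and 22.5 with a single count in the RNA. Of the 65 members with H3K4me3, 7 shared the peak with the start site of another gene, among the expressed ones TNFRSF12A with CLDN6, CXCL16 with ZMYND15 and IL17RB with CHDH, so the mark cannot be assigned to 1 of the genes there. IL15, IL15RA and IL24 carried H3K4me3 without H3K27ac, and 9 members carried H3K27ac without H3K4me3, among them IL12RB1, TLR9 and CCL22.

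Conversely, 11 of the 49 expressed members had no H3K4me3 within 1 kb of the TSS (22.4%), against 11.8% of all expressed genes and 9.47% of those with a symbol. They were IL36RN, IL20RB, IL18, IL1B, IL1R2, IL17A, TNFSF13, IL31RA, CCL25, IL13 and IL3RA, in order of level. A peak had to be found in both replicates, and CCL25 had an H3K4me3 peak of 4.60 over its TSS in replicate 1 alone. Of the 11, TNFSF13 and CCL25 had H3K27ac at the start site, at 7.48 and 5.69 for TNFSF13 and 8.93 and 6.65 for CCL25 in replicates 1 and 2. The other 9 had neither mark there, and 3 of the 9 exceeded 40 TPM.

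For IL20RB the nearest H3K4me3 peak found in both replicates lay 86.8 kb upstream, at the start of NCK1, and the strongest H3K27ac peak without H3K4me3 lay 11.4 kb upstream with a mean fold enrichment of 7.0. No peak of H3K4me3 within 10 kb of its TSS was called in either replicate. For IL18 an H3K4me3 peak of 39.0 lay 4.64 kb upstream, nearer to the start site of TEX12, which lies 5.49 kb upstream of that of IL18. For IL36RN the nearest was 36.5 kb downstream at 3.15, and for IL1B 52.6 kb upstream at 4.14. IL13 had a weak peak of 3.0 at 3.68 kb downstream. TNFSF13 lies in a gene-dense stretch, with an H3K4me3 peak of 48.2 at 4.32 kb and the start site of SENP3 at 5.19 kb.

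**Figure D5:**
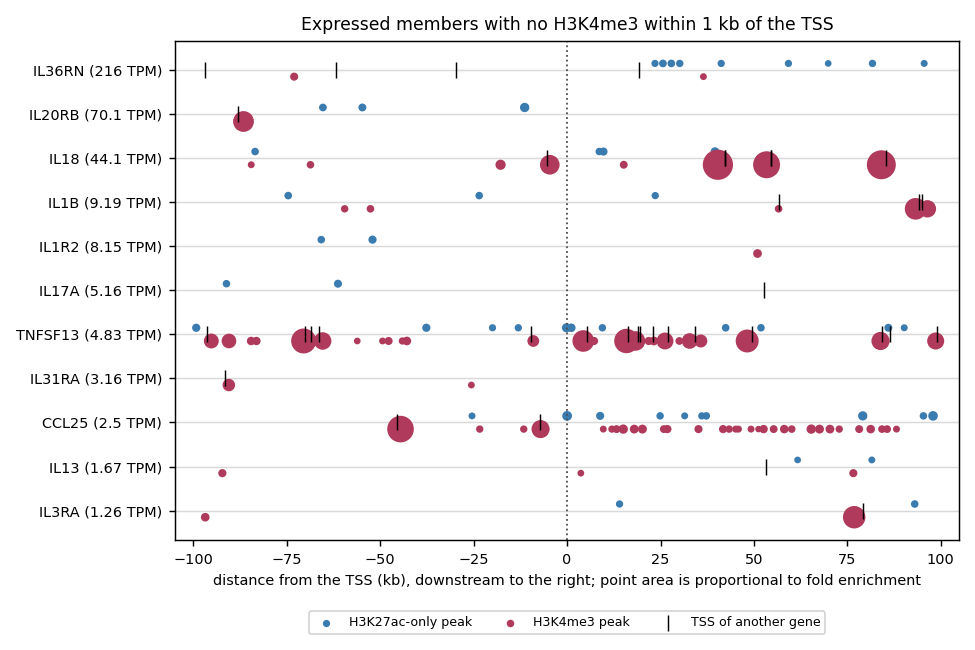
Peaks within 100 kb of the TSS (horizontal axis, kb, downstream to the right) of the 11 expressed members without H3K4me3 at the TSS, in order of TPM; blue points are H3K27ac peaks without H3K4me3, red points H3K4me3 peaks, with area proportional to fold enrichment, and black ticks the start sites of other genes. IL20RB has 3 H3K27ac-only peaks upstream and its only H3K4me3 peak at the far start site of NCK1, and IL17A has no H3K4me3 peak in the window.

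Peaks of H3K27ac that share no base with H3K4me3, the usual sign of candidate enhancers, were found near nearly all members, as near nearly all genes. At least 1 lay within 100 kb of the TSS in 112 members (95.7%), against 92% of all genes and 93.8% of genes with a symbol. The median number was 6 for the members, 5 for all genes and 6 for genes with a symbol. Expressed members had a median of 5 and the others of 6. A peak for which the member had the nearest TSS lay in the window of 81 members (69.2%), against 63.3% of all genes and 67.5% of genes with a symbol. Within 10 kb, 53 members (45.3%) had such a peak, against 39.3% of genes with a symbol. The windows held 792 distinct peaks with a median fold enrichment of 4.28, against 4.22 over all 69124 peaks of this kind.

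IL22RA1 (scaffold 10, 30947207 to 30972296, plus strand) had the most, with 32 peaks, of which 5 had its TSS as the nearest. IL12RB1 had 30 peaks, with 16 nearest to it, although it had at most 2 counts in any library. IL6 had 26, with 18 nearest to it, at a mean of 1.1 TPM. The strongest in the window of IL6, 61.4 kb downstream, had fold enrichments of 3.21 and 33.8 in replicates 1 and 2, so its mean of 18.5 rests on replicate 2, and it lay nearest to another gene. Thus the genes with the most peaks were at 9.0, 0.0579 and 1.1 TPM.

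IL34 had 21 peaks with 14 nearest to it and CXCL17 had 18 with 11, while TNFRSF4 (21 peaks) and IL17RB (19) had none nearest to them. IL1RAP also had 21, CCL22 20, and TNFSF14 and TNFRSF18 18 each. TNFRSF4 and TNFRSF18 lie within 100 kb of each other, as do 31 members with at least 1 other member. Of the 792 peaks, 96 lay in the windows of more than 1 member, and 39 members shared a peak with another, so the counts are not independent. The strongest peak in the window was nearest to a gene other than the member in 72 of 112. CXCL14, IL20RA, IL31RA, IL9 and TNFSF4 had none within 100 kb, and CXCL12 had 1, at 14.6 kb downstream. This does not mean that H3K27ac was absent there. CXCL14, at 218 TPM, had 6 H3K27ac peaks in its window, that at the TSS included, but each shared bases with H3K4me3. CXCL12 had 5 H3K27ac peaks of any kind, that at the TSS included. The window of IL4I1 reached a scaffold end.

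Several members differed between the 3 libraries. Of the 49 expressed members, 16 (32.7%) had a highest library over 2 times the lowest, against 18.4% of all expressed genes and 16.6% of those with a symbol. The expressed members had a lower median level than expressed genes with a symbol (8.57 against 22.5 TPM), whose part in this share was not tested. TMM and DESeq2 scaling, added after the values were seen, gave 14 of 47 expressed members each, against 13.7% and 13.8% of all expressed genes. Of these 14, 10 were among the 16: CXCL17, IL10RA, IL13, IL18R1, IL1R2, IL1RAP, IL1RL2, IL20RA, IL22RA1 and IL31RA. The others of the 14 were IL17A, IL2RG, IL4R and TNFRSF12A under both scalings. Of the rest of the 16, CXCL14, IL17RD, IL34 and TNFRSF1B fell to ratios of 1.71 to 1.99 with TMM, and CCL25 and IL17REL fell below 1 TPM in FP2. Nothing in the labels ties the libraries to separate litters or days.

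FP1 was the lowest library for IL20RA, IL10RA, IL1RAP, IL22RA1, IL1RL2, IL1R2 and IL31RA under each scaling. On the TPM scale it was the lowest for 39.1% of all expressed genes. IL20RA was at 1.5, 7.1 and 4.29 TPM, and IL10RA at 1.99, 3.67 and 4.64 TPM. IL1RAP was at 2.09, 2.58 and 4.51 TPM. Of the surface epithelium markers, ESRP1 was at 21.8, 84.7 and 53.2 TPM, TP63 at 28.2, 70.2 and 73.3 TPM and GRHL3 at 10.6, 29.2 and 26.1 TPM, and 6 of the 10 markers were lowest in FP1. KRT19 (659, 452 and 472 TPM) and KRT18 (103, 85.6 and 81.9 TPM) were highest in FP1, and the summed list, led by KRT14, was lowest in FP2. Their part in the result was not tested.

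IL18R1 and IL31RA (1.62, 6.10 and 1.77 TPM) were highest in FP2, as were 61.2% of all expressed genes on the TPM scale. The sums of the facial mesenchyme markers were 4288, 6262 and 3133 TPM and those of the bone and osteoclast markers 288, 609 and 146 TPM, both highest in FP2. In FP2 these sums were led by COL1A2, COL1A1 and COL3A1, and by IBSP and SPP1. Single markers differed: TWIST1, TWIST2 and PRRX2 of the mesenchyme list were highest in FP1 and MSX1 in FP3. CTSK of the bone and osteoclast list was highest in FP1. CXCL17 and IL13 (2.27, 1.72 and 1.01 TPM) were highest in FP1. The macrophage sums given above were lowest in FP3. The part of these cell types in the differences was not tested.

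The lists of related genes below are read against 75.3% of genes with a symbol expressed, 83.1% with H3K4me3 and 85.9% with H3K27ac at the TSS. Outside the symbol rule, 7 of 11 chemokine genes were expressed, with MIF at 954, 544 and 552 TPM, ACKR3 at 95.3 and RARRES2 at 62.4 TPM on average. Of 14 TNF family genes 9 were expressed, with LTBR, the lymphotoxin receptor, at 67.2, 73.5 and 72.1 TPM and NGFR at 24.4 TPM, while TNF itself was at 1.43, 1.89 and 1.52 TPM. LTB, a lymphotoxin subunit, was at 2.20, 2.44 and 1.07 TPM, while LTA, CD27, CD70, CD40LG and FASLG were below 0.3 TPM. Of 21 other haematopoietic cytokines and receptors 15 were expressed, among them CLCF1, a cytokine of the IL6 family, at 48.6, 42.7 and 34.3 TPM and CNTFR, a receptor chain of that family, at 40.4, 35.2 and 19.9 TPM.

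Interferon receptors and interferon regulatory factors were expressed in 10 of 11 cases, among them IRF2 and IRF1, with IRF4 below 0.3 TPM. Of 11 cytosolic sensors and inflammasome genes 6 were expressed, with PYCARD, the inflammasome adaptor, at 100, 81.5 and 77.9 TPM, MAVS at 34.1 and NLRX1 at 30.3 TPM on average. CGAS, AIM2 and IFIH1 were not expressed. Of 7 epithelial and secreted defence genes found, 4 were expressed, with CFB at 18.7, 17.5 and 3.87 TPM, LYZ at 12.2, 8.11 and 14.2 TPM and C3 at 6.86, 9.06 and 6.73 TPM. H3K4me3 lay at the TSS of 1 of these 7 defence genes, and H3K27ac at 5.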

How the data were processed

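The authors trimmed the RNA reads with Trimmomatic 0.39, aligned them with HISAT2 2.21 to their dunnart assembly and deposited raw counts per gene over exons (featureCounts of Subread 2.0.1, reverse-stranded, exon lengths beside the counts). ChIP reads were trimmed with cutadapt 1.9.1 and aligned with Bowtie2 2.3.5.1, and per the file headers and methods the authors called peaks per replicate against input with MACS2 2.1.1. The deposited peak files give fold enrichment over input (a ratio), −log10 p and q values, and a display score, which was not used.

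Here the counts were divided by exon length and scaled to TPM over 21692 genes (11 models split over 2 lines were left out, none a member). A peak (q under 0.05) was kept when it shared 50% of the length of either peak with one of the other replicate, which gave 108146 H3K4me3 and 148724 H3K27ac peaks, and 69124 H3K27ac peaks shared no base with H3K4me3. A mark was at a TSS within 1 kb, and windows reached 100 kb. Scripts were tested on simulated data. Python 3.11.15, pandas 2.3.3, R 4.3.3, edgeR 4.0.16 and DESeq2 1.42.0 (scaling factors only) were used. No test between groups was made. SDs measure the spread between pools, and limits of detection cover counting error only.

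The members and lists were chosen with earlier results of these data known. Named were members over 10 TPM, the 3 highest of each class, the 10 with the strongest H3K4me3, the 10 with the most H3K27ac-only peaks, the 10 strongest marked but not expressed, all expressed without H3K4me3, all with a highest library over 2 times the lowest, and all at 0 counts, with the 3 highest of each other list; further genes were chosen after their values were seen. Some genes of the other lists are not reported here. Symbols follow the files. In a RefSeq gene table of another dunnart assembly, used for names only, 105 of 117 were found, and 104 of these shared a neighbour. Not found were IL36RN, IL18, IL1B, IL10RB, TNFSF13, CXCL17, TLR2, CCL17, CCR8, IL4, IL1F10 and IL9. IL11 was found but shared no neighbour. The names and start sites of these genes, several of them featured above, were not checked in another way.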

Additional observations from a re-analysis of the deposited data

How the results depend on the processing

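No paired analysis was possible because no result comes from a test between groups and the RNA columns carry no replicate number of the labels. Over 8 to 17 alternatives each, the numbers of members expressed, marked at the TSS by H3K4me3, H3K27ac or both, near an H3K27ac-only peak, and marked but not expressed stayed within 1.5 times the reported counts. Leaving out 1 RNA library in turn gave 49 to 55 expressed members, a median of 0.982 to 1.19 TPM, 24 to 27 marked members not expressed and 11 to 14 expressed members without H3K4me3. The latter number, reported as 11, became 17 at a threshold of 0.5 TPM, 7 at 2 TPM and 17 with a mean over 1 TPM. The median of 1.16 TPM became 6.31 over members with at least 10 counts in every library, which leaves out the low genes by construction. The median H3K4me3 fold enrichment of 18.5 became 20.7 where the peak had to cover the TSS, 22 at q under 0.0001, 20.7 with 50% of both lengths shared, and 14.8 to 17.6 with the peaks of 1 replicate alone. TMM scaling moved every gene by 0.04, -0.21 and 0.14 (log2) in FP1, FP2 and FP3, and FP2 was then the highest library for 15 of 47 expressed members in place of 23 of 49. Over all expressed genes, FP2 was the highest library for 31.4% with TMM scaling in place of 61.2%. In 24 members with at most 3 counts in every library, levels were at or below the limit of detection used here, although some of these members had reads.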
